A study of Mus musculus with 11 samples.

Results

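Heart transcripts of 10 genes that make, process or receive angiotensin, endothelin and adrenergic signals were followed in 11 mice. The genes are Ace, Agt, Agtr1a, Agtr2, Edn1, Ednra, Ednrb, Adrb1, Adra1a and Adra1b, found by symbol among the 55513 genes of the count table, and all 10 were present. The mice were female C57BL/6J, 8 weeks old at surgery, and each gave 1 sequencing library. In 8 mice the left anterior descending coronary artery was tied off permanently, which starves part of the left ventricle of blood and causes a myocardial infarction (MI), and tissue was taken 3 days later from the infarct together with its border zone. Of these, 4 mice (A116, A117, A119 and A120) received GI254023X at 100 mg/kg, a small molecule that inhibits the membrane protease ADAM10 (A10i), and 4 (A105, A127, A128 and A129) received its solvent DMSO. The other 3 mice (S1, S2 and S3) were sham-operated, also received DMSO and gave healthy heart tissue. Minipumps under the skin delivered drug and solvent, so A10i reached the whole animal and not the heart alone.

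Angiotensinogen, the product of Agt, is cut by renin and then by the angiotensin-converting enzyme Ace to give angiotensin II, which acts through the type 1 receptor (Agtr1a in mice) and the type 2 receptor (Agtr2). Edn1 encodes the precursor of endothelin-1, a constrictor peptide of the vessel wall that acts through the receptors Ednra and Ednrb. Noradrenaline and adrenaline act on the heart mainly through the beta-1 receptor Adrb1, which raises rate and force of contraction, and also through the alpha-1 receptors Adra1a and Adra1b. These systems are the targets of ACE inhibitors, angiotensin receptor blockers and beta blockers, standard drugs after MI and in heart failure.

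Levels are given as CPM, the count of a gene scaled to the size of its library, with library sizes corrected over the 11 libraries by the TMM method. Differences are log2 fold changes of edgeR's quasi-likelihood test with their standard errors (SE), and a gene was called at an adjusted p-value under 0.01. Libraries held 21702659 to 29511782 counts in total, with medians of 27328036 for sham mice, 26541362 for DMSO mice and 23520969 for A10i mice. Cardiomyocyte markers, 9 genes such as Myh6 and Tnnt2, summed to 87744 to 89461 CPM in sham, 39910 to 58384 CPM in DMSO and 49896 to 69042 CPM in A10i mice, so heart muscle was present in every library. Of the 9 markers, 5 were lower in DMSO and 2 in A10i against sham mice, while Tnnt2 stood at 6894 CPM in sham, 7402 CPM in DMSO and 6791 CPM in A10i mice on average and was not called. In bulk tissue, fewer cells of a type and less RNA per cell cannot be told apart, and this holds for every level below.

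Between DMSO and sham mice, 3 of the 9 genes that could be tested were higher and 0 were lower, where 12.9% of the 17119 genes tested were higher and 9.6% were lower. Ace, Agt and Ednrb were the 3 genes. Between A10i and sham mice, 3 of 9 were higher (Ace, Agt and Ednrb) and 1 was lower (Agtr1a), where 13.8% of 17004 genes were higher and 9.09% were lower. These comparisons share the 3 sham mice. Between A10i and DMSO mice, edgeR called 0 of 9 and 0 of all 16793 genes tested (0%). DESeq2 also called 0 of the 9, where it called 231 of 17549 genes (1.32%), and limma-voom called 0 of the 9 and 0 of 16793 genes. The median log2 fold change of the 9 genes was 0.28 in DMSO against sham, 0.05 in A10i against sham and -0.06 in A10i against DMSO mice. Over all genes tested it was 0.0021, -0.0056 and 0.0034. Agtr2 did not pass the filter on low counts and was not tested.

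**Figure D1:**
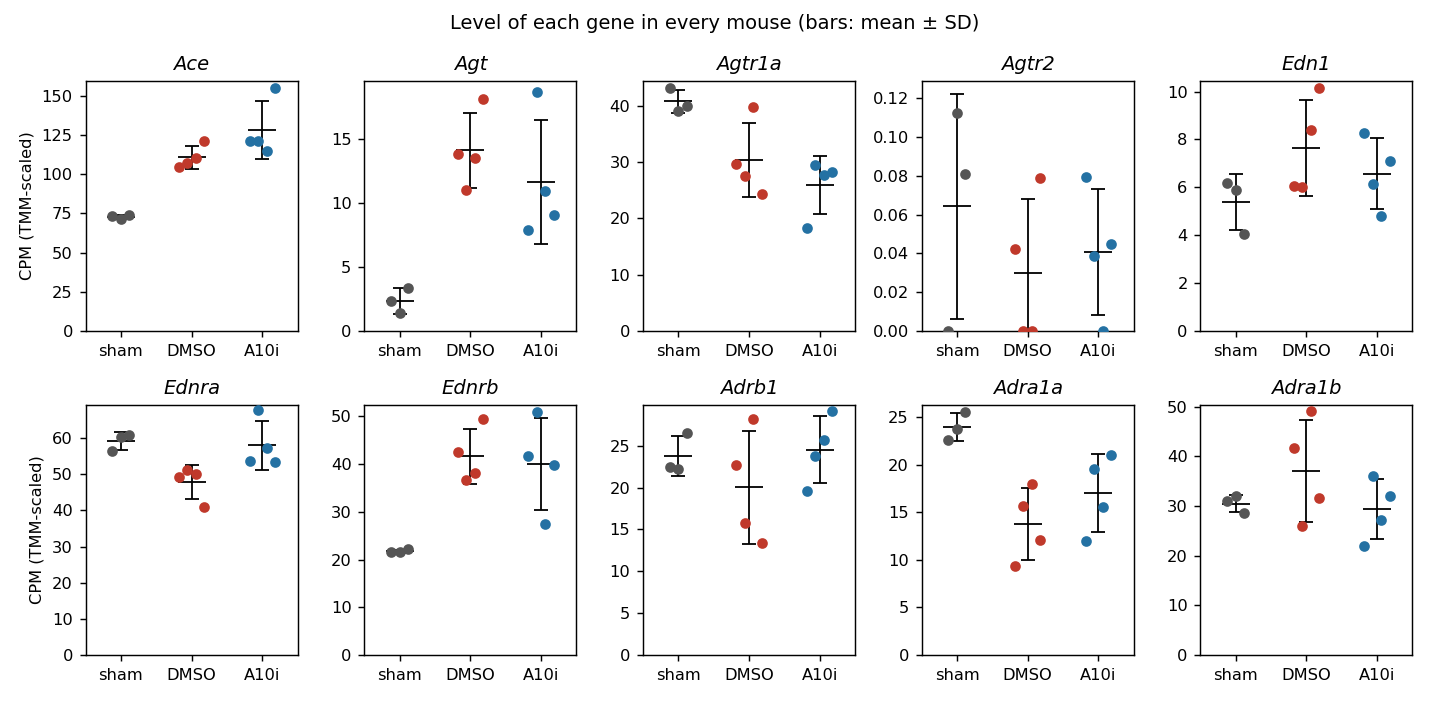
CPM of each of the 10 genes (y axes, each from 0) in every mouse (points) of the sham, DMSO and A10i groups, with the mean and SD as bars. Ace, Agt and Ednrb lie higher in all 8 infarcted mice than in any sham mouse, Adra1a lies lower in all 8, and Agtr2 stays at or below 0.112 CPM.

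Agt (ENSMUSG00000031980, minus strand, chr8:124556534-124569706 in mm10), the precursor of all angiotensin peptides, differed most from sham mice among the 10 genes. It stood at 2.34, 1.38 and 3.35 CPM in the sham mice, from 37 to 83 counts. In the DMSO mice it stood at 13.8 (A105), 11.03 (A127), 13.5 (A128) and 18.1 CPM (A129), and in the A10i mice at 7.89 (A116), 18.7 (A117), 10.9 (A119) and 9.04 CPM (A120). The lowest infarcted mouse was above the highest sham mouse, while the DMSO and A10i mice overlapped. Agt was 5.98-fold higher in DMSO than in sham mice, a log2 fold change of 2.58 (SE 0.284, adjusted p = 0.00032), and 4.97-fold higher in A10i than in sham mice, at 2.31 (SE 0.380, adjusted p = 0.00213). The call in A10i mice was lost when sham mouse S1 was left out (adjusted p = 0.0113) or when no filter on low counts was used (adjusted p = 0.0216). Between A10i and DMSO mice the log2 difference was -0.27 (95% interval -0.86 to 0.32, adjusted p = 0.70).

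Ace (ENSMUSG00000020681, plus strand, chr11:105967945-105989964), which converts angiotensin I to angiotensin II and also breaks down bradykinin and lies on the surface of endothelial cells, stood at 73.2, 71.2 and 73.9 CPM in the sham mice. The DMSO mice held 104.8 (A105), 107 (A127), 110 (A128) and 121 CPM (A129). The A10i mice held 121 (A116), 121 (A117), 115 (A119) and 155 CPM (A120). All infarcted mice were thus above all sham mice, and A120 stood apart above the other 3 A10i mice. Ace was 1.52-fold higher in DMSO than in sham mice (log2 0.60, SE 0.0796, adjusted p = 0.000558) and 1.76-fold higher in A10i than in sham mice (log2 0.82, SE 0.102, adjusted p = 0.000397). Both calls held under every alternative tried, each mouse left out in turn included. The difference between A10i and DMSO mice was 0.21 on the log2 scale (95% interval -0.03 to 0.45, adjusted p = 0.427).

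The promoters of Agt and Ace are shown because both transcripts were called against sham mice in each infarcted group, and that of Ednrb for the same reason. They are the 250 bases before the RefSeq start of each gene (GRCm38.p6, the same assembly as mm10), 5′ to 3′ on the strand of the gene, with matches to the searched motifs in capitals. The windows are chr8:124569707-124569956 on the minus strand for Agt, chr11:105967698-105967947 on the plus strand for Ace and chr14:103843702-103843951 on the minus strand for Ednrb.
Agt: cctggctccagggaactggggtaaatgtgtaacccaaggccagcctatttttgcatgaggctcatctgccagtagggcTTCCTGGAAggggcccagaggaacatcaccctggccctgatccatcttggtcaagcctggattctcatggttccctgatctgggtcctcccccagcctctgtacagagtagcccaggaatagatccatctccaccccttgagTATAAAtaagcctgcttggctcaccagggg
Ace: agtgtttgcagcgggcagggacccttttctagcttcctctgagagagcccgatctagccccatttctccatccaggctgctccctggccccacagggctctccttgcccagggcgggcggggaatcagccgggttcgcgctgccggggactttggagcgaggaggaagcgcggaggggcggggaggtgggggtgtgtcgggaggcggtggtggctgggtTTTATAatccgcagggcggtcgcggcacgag
Ednrb: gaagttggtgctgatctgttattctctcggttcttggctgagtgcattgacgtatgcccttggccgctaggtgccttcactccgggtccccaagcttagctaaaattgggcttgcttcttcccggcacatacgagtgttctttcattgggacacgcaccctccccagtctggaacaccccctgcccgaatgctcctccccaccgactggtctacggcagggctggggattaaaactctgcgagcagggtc
The motifs searched, on both strands, were TATAAA for the TATA box, TGACTCA for AP-1, TTCNNNGAA for STAT factors, AGATAA for GATA factors and ACGTG for the hypoxia-inducible factors. Agt holds the TATA box motif 30 bases before its start and the STAT motif 172 bases before it. Ace holds the TATA box motif 31 bases before its start on the opposite strand, where the printed letters read TTTATA. None of the 5 motifs matches in the Ednrb window, whose RefSeq start is 701 bases inside the gene as counted. The bases after this start were not found in a transcript of Ednrb, while those of Agt and Ace were found in theirs. The printed matches do not overlap each other. Of 32851 promoter windows of 250 bases in the table, 12.4% held the TATA box motif, 4.46% that of AP-1, 7.02% that of STAT factors, 9.99% that of GATA factors and 16.6% that of the hypoxia-inducible factors. Of the 10 genes, 8 had a window, and among those not printed Adra1b held the AP-1 motif 198 bases before its start. The bases after that start were likewise not found in a transcript of Adra1b. These are matches of letters alone.

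Agtr1a (ENSMUSG00000049115, chr13:30336441-30382867), the receptor through which angiotensin II constricts vessels, lay on the other side of sham from Agt and Ace. It stood at 43.1, 39.1 and 40.0 CPM in the sham mice. The DMSO mice were at 29.6 (A105), 27.6 (A127), 39.7 (A128) and 24.4 CPM (A129), of which A128 reached the sham range. The A10i mice were at 18.2 (A116), 29.5 (A117), 27.7 (A119) and 28.3 CPM (A120), all below every sham mouse. Agtr1a in A10i against sham mice fell by 0.65 on the log2 scale (SE 0.146, adjusted p = 0.00763). This call was lost without S1, S2, S3 or A120, with all 11 libraries in one fit, with library size as the only scaling and with no filter on low counts, at adjusted p-values of 0.0130 to 0.0336. In DMSO against sham mice the log2 fold change was -0.43 (SE 0.147, adjusted p = 0.0421), without A128 it was -0.59 (adjusted p = 0.00155), and with library size as the only scaling it was -0.23 (adjusted p = 0.22). The difference between A10i and DMSO mice was -0.22 (95% interval -0.64 to 0.19, adjusted p = 0.645), so the call in one group and not in the other does not show that the groups differ.

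Agtr2 (ENSMUSG00000068122, chrX:21484544-21489164), a receptor best known from fetal tissue, had 0, 3 and 2 counts in the sham mice, 1, 0, 0 and 2 counts in the DMSO mice and 2, 1, 0 and 1 counts in the A10i mice. No library exceeded 3 counts, so no fold change is given, and a difference between groups was not detectable at this depth.

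Of the wider renin-angiotensin pathway, 22 further genes were followed. In DMSO against sham mice, 17 passed the filter, 0 were higher and 2 were lower, with a median log2 fold change of -0.09. Over all genes tested, 12.9% were higher and 9.6% were lower. Mas1, a receptor for angiotensin 1-7, fell by 1.81 on the log2 scale (SE 0.338, adjusted p = 0.00281), from 24 to 35 counts in sham mice to 4 to 14 counts in DMSO mice. Agtrap, which promotes uptake of the type 1 receptor into the cell, fell by 0.61 (SE 0.112, adjusted p = 0.00251), from 67.3 ± 3.96 CPM (SD, n = 3) to 44.0 ± 6.54 CPM (SD, n = 4). Between A10i and sham mice, 3 of 18 were higher and 3 were lower, where 13.8% and 9.09% of all genes tested were. In A10i against DMSO mice, 0 of 18 were called and 6 were under an unadjusted p of 0.05, where 13.8% of all genes tested were. The 2 smallest p-values belonged to Cma1, a mast cell protease (log2 1.05, SE 0.266, adjusted p = 0.14), and to the peptidase Nln (log2 -0.29, SE 0.0954, adjusted p = 0.229). Cma1 had 15 to 30 counts in sham, 15 to 25 counts in DMSO and 24 to 43 counts in A10i mice. Its CPM did not overlap between DMSO and A10i mice, as for 8.13% of all genes tested. Other mast cell markers, 4 genes, summed to 2.51 to 2.70 CPM in sham, 0.943 to 2.24 CPM in DMSO and 1.65 to 4.05 CPM in A10i mice, and their part in the Cma1 level was not tested. Renin itself was almost absent from the tissue, with at most 3 counts of Ren1 per library, Agtr1b had at most 1 count, and the aldosterone-forming genes Cyp11b1 and Cyp11b2 had 0 counts in all 11 libraries.

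**Figure D2:**
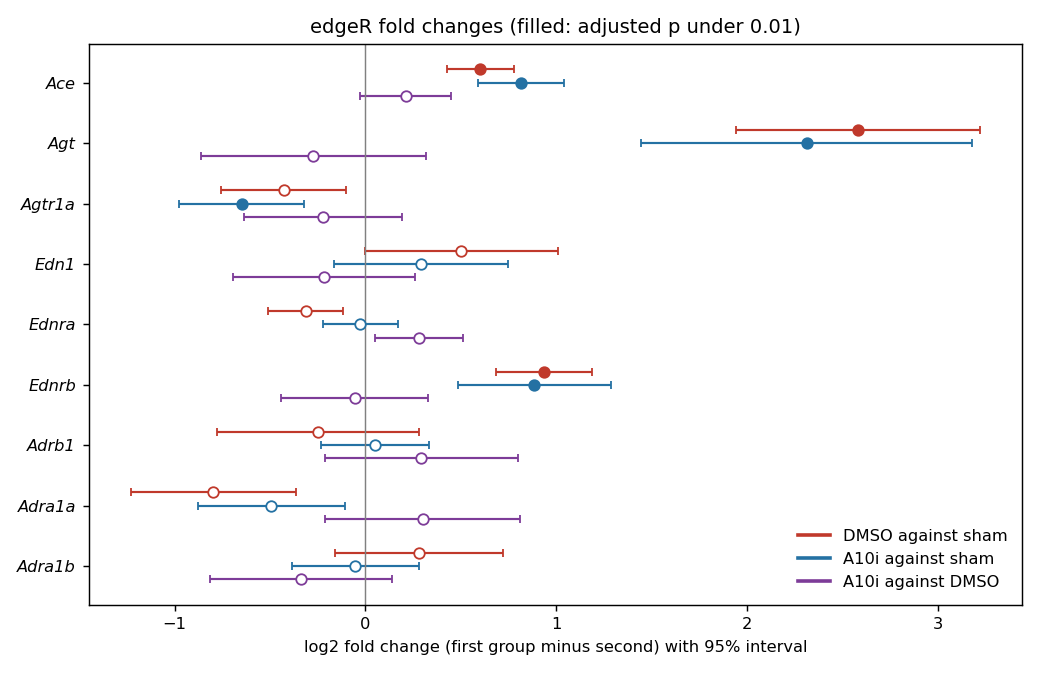
Log2 fold change (x axis, first group minus second, points) with its 95% interval (lines) for the 9 genes tested, in DMSO against sham, A10i against sham and A10i against DMSO mice. Filled points have an adjusted p-value under 0.01, which holds for Ace, Agt and Ednrb in both comparisons with sham mice and for Agtr1a in A10i against sham mice.

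Edn1 (ENSMUSG00000021367, chr13:42301476-42307990), the ligand of both endothelin receptors, was not called in any comparison. It stood at 6.19, 5.91 and 4.07 CPM in the sham mice, at 6.08, 6.00, 8.39 and 10.1 CPM in the DMSO mice (A105, A127, A128, A129) and at 8.25, 6.15, 4.79 and 7.11 CPM in the A10i mice (A116, A117, A119, A120). The 3 groups overlapped. The log2 fold change was 0.50 in DMSO against sham (95% interval -0.0042 to 1.01, adjusted p = 0.104), 0.29 in A10i against sham (95% interval -0.17 to 0.75, adjusted p = 0.29) and -0.22 in A10i against DMSO mice (95% interval -0.69 to 0.26, adjusted p = 0.706).

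Ednrb (ENSMUSG00000022122, minus strand, chr14:103814625-103844402), the receptor of endothelial and some other cells that also clears endothelin-1, was higher after MI. The sham mice held 21.5, 21.6 and 22.1 CPM. The DMSO mice held 42.4 (A105), 36.7 (A127), 38.0 (A128) and 49.5 CPM (A129), and the A10i mice 41.7 (A116), 51.0 (A117), 27.4 (A119) and 39.8 CPM (A120). Every infarcted mouse was above every sham mouse, with A119 the closest to them. Ednrb was 1.91-fold higher in DMSO than in sham mice (log2 0.94, SE 0.112, adjusted p = 0.00036) and 1.85-fold higher in A10i than in sham mice (log2 0.88, SE 0.177, adjusted p = 0.0047). The second call was lost with no filter on low counts (adjusted p = 0.0327) and without S1, S2, S3, A116 or A120 (adjusted p of 0.0119 to 0.0300), while the first held under every alternative. A10i and DMSO mice differed by -0.06 on the log2 scale (95% interval -0.44 to 0.33, adjusted p = 0.92), and the sign turned without A129 or A119. Endothelial markers, 5 genes such as Pecam1 and Cdh5, summed to 746 to 761 CPM in sham, 590 to 718 CPM in DMSO and 715 to 811 CPM in A10i mice. Of the 5, Kdr and Tie1 were lower in DMSO against sham mice and Tie1 in A10i against sham mice, and the other genes were not called. Their part in the Ednrb level was not tested.

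Ednra (ENSMUSG00000031616, minus strand, chr8:77663031-77724464), the constrictor receptor of smooth muscle and heart muscle cells, stood at 56.4, 60.3 and 61.0 CPM in the sham mice. The DMSO mice were at 49.2 (A105), 51.1 (A127), 50.1 (A128) and 40.9 CPM (A129), all below every sham mouse. The A10i mice were at 53.7 (A116), 67.9 (A117), 57.3 (A119) and 53.3 CPM (A120), all above every DMSO mouse and on both sides of the sham mice. The log2 fold change was -0.31 in DMSO against sham (SE 0.0887, adjusted p = 0.0194), -0.03 in A10i against sham (SE 0.0885, adjusted p = 0.841) and 0.28 in A10i against DMSO mice (SE 0.104, 95% interval 0.05 to 0.51). The last had an unadjusted p of 0.021 and an adjusted p of 0.267 and was not called. Ednra was the 1 gene of the 9 whose A10i and DMSO mice did not overlap, where 8.13% of all genes tested were of this kind, and the 1 gene under an unadjusted p of 0.05, where 13.8% were. Mural markers, 7 genes of smooth muscle cells and pericytes, summed to 1532 to 1617 CPM in sham, 757 to 1002 CPM in DMSO and 917 to 1140 CPM in A10i mice, with 4 of 7 lower in each comparison with sham mice. Among them Rgs5, also followed below as a signaling gene, averaged 710 CPM in sham, 368 CPM in DMSO and 442 CPM in A10i mice. The part of the mural markers in the Ednra level was not tested. An antisense gene, 4933431K23Rik, shares 182 bases with Ednra and had at most 149 counts per library, beside 1042 to 1755 counts of Ednra.

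Of 5 further endothelin genes, 2 passed the filter and 0 were called in any comparison. Ece1, the main enzyme that releases endothelin-1 from its precursor, stood at 118.9 ± 2.37 CPM (SD, n = 3) in sham, 146 ± 24.6 CPM (SD, n = 4) in DMSO and 131 ± 11.3 CPM (SD, n = 4) in A10i mice. The ligand Edn3 stood at 1.54 ± 0.489 CPM (SD, n = 3), 1.00 ± 0.216 CPM (SD, n = 4) and 1.33 ± 0.275 CPM (SD, n = 4) in the same order.

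Adrb1 (ENSMUSG00000035283, chr19:56722199-56733113), the main beta receptor of heart muscle cells, spread widely among the infarcted mice. It stood at 22.5, 22.2 and 26.5 CPM in the sham mice, at 22.7 (A105), 15.8 (A127), 28.3 (A128) and 13.4 CPM (A129) in the DMSO mice and at 19.6 (A116), 23.7 (A117), 25.7 (A119) and 29.1 CPM (A120) in the A10i mice. The DMSO mice lay on both sides of the sham mice, with a coefficient of variation of 33.7% against 10.2% in sham and 16.1% in A10i mice. The log2 fold change was -0.25 in DMSO against sham (95% interval -0.78 to 0.28, adjusted p = 0.424), 0.05 in A10i against sham (95% interval -0.23 to 0.33, adjusted p = 0.782) and 0.29 in A10i against DMSO mice (95% interval -0.21 to 0.80, adjusted p = 0.613).

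Adra1a (ENSMUSG00000045875, chr14:66635251-66771168), an alpha-1 receptor of heart muscle cells, held 22.7, 23.8 and 25.5 CPM in the sham mice. It held 9.41 (A105), 15.7 (A127), 18.003 (A128) and 12.1 CPM (A129) in the DMSO mice and 11.9 (A116), 19.6 (A117), 15.5 (A119) and 21.0 CPM (A120) in the A10i mice. All infarcted mice were below all sham mice. In DMSO against sham mice the log2 fold change was -0.80 (SE 0.191) and its adjusted p of 0.0102 missed the threshold by little. It passed with DESeq2 (adjusted p = 0.000581), with limma-voom (adjusted p = 0.0082), with at least 10 counts required in every library (adjusted p = 0.00937) and without A105 (adjusted p = 0.00666) or A128 (adjusted p = 0.00277). It did not pass in the other settings, with adjusted p-values from 0.0101 with DESeq2 size factors in edgeR to 0.0493 with library size as the only scaling, where the log2 fold change was -0.59. In A10i against sham mice the log2 fold change was -0.49 (SE 0.170, adjusted p = 0.0458), and between A10i and DMSO mice it was 0.30 (95% interval -0.21 to 0.81, adjusted p = 0.605). The cardiomyocyte marker sum was also below every sham mouse in all 8 infarcted mice, with Myh6 at 38252 CPM in sham, 16797 CPM in DMSO and 22027 CPM in A10i mice on average, although not each of the 9 markers was lower. Its part in the Adra1a level was not tested.

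Adra1b (ENSMUSG00000050541, minus strand, chr11:43774606-43901210), the other alpha-1 receptor of heart muscle, did not share this position. It stood at 30.9, 32.0 and 28.5 CPM in the sham mice, at 41.6 (A105), 26.1 (A127), 49.0 (A128) and 31.6 CPM (A129) in the DMSO mice and at 22.02 (A116), 36.0 (A117), 27.2 (A119) and 32.1 CPM (A120) in the A10i mice. All 3 groups overlapped. The log2 fold change was 0.28 in DMSO against sham (95% interval -0.16 to 0.72, adjusted p = 0.278), -0.05 in A10i against sham (95% interval -0.38 to 0.28, adjusted p = 0.804) and -0.34 in A10i against DMSO mice (95% interval -0.81 to 0.14, adjusted p = 0.528).

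Counting genes whose mice did not overlap, 5 of 9 stood apart between DMSO and sham mice, where 48.7% of all genes tested did, and 5 of 9 between A10i and sham mice, where 48.2% did. Ace, Agt and Ednrb were above and Adra1a was below sham mice in both, joined by Ednra below in DMSO mice and by Agtr1a below in A10i mice.

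Because 2 receptors of 1 ligand can be read against each other within a mouse, without any scaling of libraries, ratios of their counts were compared. Ednra counts were 2.62 to 2.80 times those of Ednrb in the sham mice, 0.826 to 1.39 times in the DMSO mice and 1.29 to 2.09 times in the A10i mice. Only in DMSO mouse A129 did the counts of Ednrb exceed those of Ednra, and this order also depends on the lengths of the 2 genes. The mean log2 ratio was 1.45 ± 0.0487 (SD, n = 3) in sham, 0.20 ± 0.337 (SD, n = 4) in DMSO and 0.57 ± 0.332 (SD, n = 4) in A10i mice. Every infarcted mouse was below every sham mouse, by 1.24 on average in DMSO and 0.88 in A10i mice (exact permutation test, two-sided, p = 0.0571 each, the smallest that 3 mice against 4 allow, adjusted p = 0.129 over 9 tests of ratios, of which 6 are reported).

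Adra1a counts were 0.733 to 0.895 times those of Adra1b in the sham mice, 0.226 to 0.604 times in the DMSO mice and 0.543 to 0.655 times in the A10i mice. The mean log2 ratio was -0.35 ± 0.161 (SD, n = 3) with sham surgery, -1.43 ± 0.579 (SD, n = 4) with MI and DMSO, and -0.79 ± 0.127 (SD, n = 4) with MI and A10i. Again each infarcted group was apart from the sham mice (exact permutation test, two-sided, p = 0.0571 each, adjusted p = 0.129). Between A10i and DMSO mice the mean log2 ratio differed by 0.36 for Ednra and Ednrb and 0.63 for Adra1a and Adra1b, both with overlap (exact permutation test, two-sided, p = 0.229 and 0.114, adjusted p = 0.294 and 0.171). The smallest p that 4 mice against 4 allow is 0.0286. Ratios of counts compare genes of different length and serve only for comparisons between mice.

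**Figure D3:**
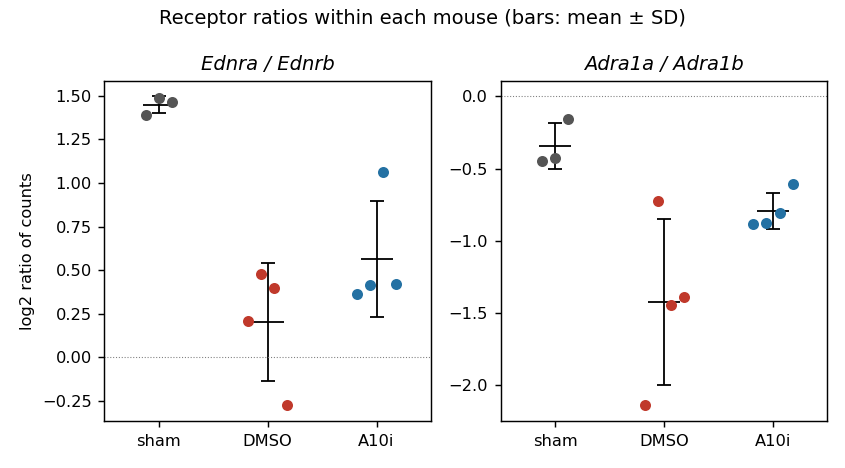
Log2 ratio of counts of 2 receptors (y axis) in every mouse (points) of the 3 groups, with the mean and SD as bars, for Ednra to Ednrb and Adra1a to Adra1b. Both ratios lie lower in all infarcted mice than in any sham mouse, and the DMSO and A10i mice overlap.

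To compare the genes with each other, CPM was divided by exon length in kilobases (kb). In sham hearts Agtr1a was the highest at 14.6 ± 0.756 CPM per kb (SD, n = 3), followed by Ace at 13.8 ± 0.264, Ednra at 10.8 ± 0.455, Adra1b at 9.01 ± 0.522, Adrb1 at 7.02 ± 0.716 and Ednrb at 5.09 ± 0.0794 CPM per kb. Adra1a at 2.75 ± 0.166 and Edn1 at 2.52 ± 0.538 CPM per kb overlapped, Agt stood at 1.25 ± 0.519 CPM per kb and Agtr2 was last. All other neighbours in this order were apart. In DMSO mice Ace led at 20.9 ± 1.37 CPM per kb (SD, n = 4) and was apart from the rest. Adra1b, Agtr1a, Ednrb, Ednra, Agt, Adrb1 and Edn1 followed from 10.97 to 3.58 CPM per kb, each overlapping the next, and Adra1a was apart below them at 1.58 ± 0.437 CPM per kb. In A10i mice Ace again led, at 24.2 ± 3.47 CPM per kb (SD, n = 4), and Ednra came next at 10.6 ± 1.25 CPM per kb, then Ednrb, Agtr1a, Adra1b, Adrb1 and Agt, each overlapping the next, and Edn1 and Adra1a were apart below Agt and overlapped each other.

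**Figure D4:**
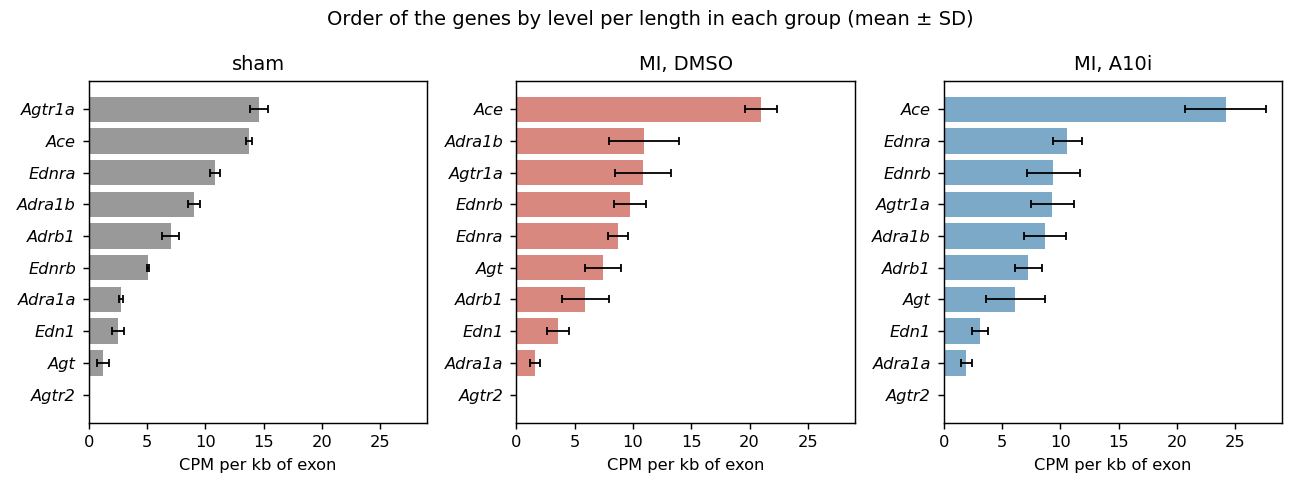
Mean level per exon length (x axis, CPM per kb, bars, with SD as error bars) of the 10 genes, ordered within the sham, DMSO and A10i groups. Ace is first in both infarcted groups and second to Agtr1a in sham mice, Agt is near the bottom in sham mice (1.25 CPM per kb) and higher in DMSO (7.46) and A10i mice (6.15), and Agtr2 is too low to be seen.

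The infarcted mice also differed among themselves. DMSO mouse A129 had the highest Agt, Ace, Edn1 and Ednrb and the lowest Agtr1a, Ednra and Adrb1 of its group, while A128 had the highest Agtr1a, Adrb1, Adra1a and Adra1b. Among the A10i mice, A116 had the lowest Agt, Agtr1a, Adrb1, Adra1a and Adra1b and the highest Edn1. The cardiomyocyte marker sum was lowest in the same mice, at 39910 CPM in A129 among DMSO mice and at 49896 CPM in A116 among A10i mice, although A128 was second lowest at 48769 CPM. The fibroblast marker sum, 7 genes such as Pdgfra and Col1a1, was highest in them, at 2842 CPM in A129 and 4146 CPM in A116. It spanned 791 to 856 CPM in sham, 1057 to 2842 CPM in DMSO and 2350 to 4146 CPM in A10i mice, with 2 of 7 markers higher in DMSO and 6 of 7 higher in A10i against sham mice. Macrophage and monocyte markers summed to 203 to 218 CPM in sham, 359 to 667 CPM in DMSO and 457 to 976 CPM in A10i mice. Neutrophil markers summed to 1.05 to 2.08 CPM, 61.2 to 115 CPM and 11.9 to 40.6 CPM in the same order, with Ly6g at 0 in every sham mouse. The macrophage and monocyte, neutrophil and atrial marker sums were also highest in A129 and A116 within their groups. The atrial sum was 86.7 CPM in A129 and 93.7 CPM in A116. The red blood cell sum was highest in A105 and A117, and the endothelial sum in A129 and A119. The part of these cell types in the levels of the 10 genes was not tested.

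The 15 further adrenergic genes cover other receptors and the making, uptake and breakdown of catecholamines. In DMSO against sham mice 10 passed the filter, 0 were higher and 2 were lower, with a median log2 fold change of -0.33. The shares over all genes tested were 12.9% higher and 9.6% lower. The alpha-2 receptor Adra2b fell by 1.27 on the log2 scale (SE 0.245, adjusted p = 0.00323), from 1.85 ± 0.311 CPM (SD, n = 3) to 0.769 ± 0.154 CPM (SD, n = 4), and the catecholamine transporter Slc22a3 fell by 0.83 (SE 0.183, adjusted p = 0.00621), from 5.22 ± 0.824 CPM (SD, n = 3) to 2.94 ± 0.458 CPM (SD, n = 4). In A10i against sham mice 0 of 10 were called, where 13.8% of all genes tested were higher and 9.09% were lower. Against DMSO mice, A10i mice had 0 of 10 called and 4 under an unadjusted p of 0.05, where 13.8% of all genes tested were. The smallest p belonged to Pnmt, the enzyme that turns noradrenaline into adrenaline, at a log2 fold change of -1.65 (SE 0.494, adjusted p = 0.19). Pnmt had 6 to 18 counts in the sham mice, 19 to 63 in the DMSO mice and 5 to 14 in the A10i mice. Its CPM did not overlap between DMSO and A10i mice, as for 8.13% of all genes tested. The highest DMSO mouse stood at 2.66 CPM, beside a median of 0.952 CPM in that group. Adra2b came next in this comparison at 0.63 (SE 0.230, adjusted p = 0.267). Th, the first enzyme of catecholamine synthesis, had at most 3 counts in any library. Schwann cell markers, 5 genes of the cells that ensheath nerve fibers, summed to 15.2 to 19.3 CPM in sham, 10.6 to 13.3 CPM in DMSO and 11.5 to 15.3 CPM in A10i mice. Atrial markers, 3 genes, summed to 10.2 to 24.4, 12.7 to 86.7 and 39.5 to 93.7 CPM and red blood cell transcripts, 3 genes, to 447 to 990, 185 to 2873 and 810 to 3824 CPM in the same order.

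Downstream of these receptors, 29 genes of G proteins, their regulators and second messengers were followed, and all 29 were tested. In DMSO against sham mice 6 were higher and 5 were lower, where 12.9% and 9.6% of all genes tested were. The higher genes with the largest changes were Arrb2, a beta-arrestin that ends receptor signaling (log2 0.99, SE 0.218, adjusted p = 0.00706), the receptor kinase Grk5 (log2 0.82, SE 0.0993, adjusted p = 0.000376) and the inhibitory G protein Gnai3 (log2 0.82, SE 0.153, adjusted p = 0.00306). The lower genes were led by Rgs5, a regulator of G protein signaling and a pericyte marker, which fell by 0.95 (SE 0.134, adjusted p = 0.000735), from 699 to 718 CPM in sham to 286 to 435 CPM in DMSO mice. Adcy6, an adenylyl cyclase of heart muscle cells, fell by 0.67 (SE 0.125, adjusted p = 0.00273) and Itpr2, a calcium release channel, fell by 0.54 (SE 0.0983, adjusted p = 0.0026). Between A10i and sham mice 5 were higher and 5 were lower, where 13.8% and 9.09% of all genes tested were. Between A10i and DMSO mice 0 of 29 were called and 2 were under an unadjusted p of 0.05, where 13.8% of all genes tested were. Pde4b, a phosphodiesterase that degrades cAMP, held 45.3 to 57.7 CPM in DMSO and 33.3 to 39.3 CPM in A10i mice, beside 30.2 to 33.0 CPM in sham mice (log2 -0.56, SE 0.0975, adjusted p = 0.0707). Itpr2 held 22.5 to 29.8 CPM in DMSO and 31.8 to 35.6 CPM in A10i mice (log2 0.36, SE 0.0942, adjusted p = 0.147).

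**Figure D5:**
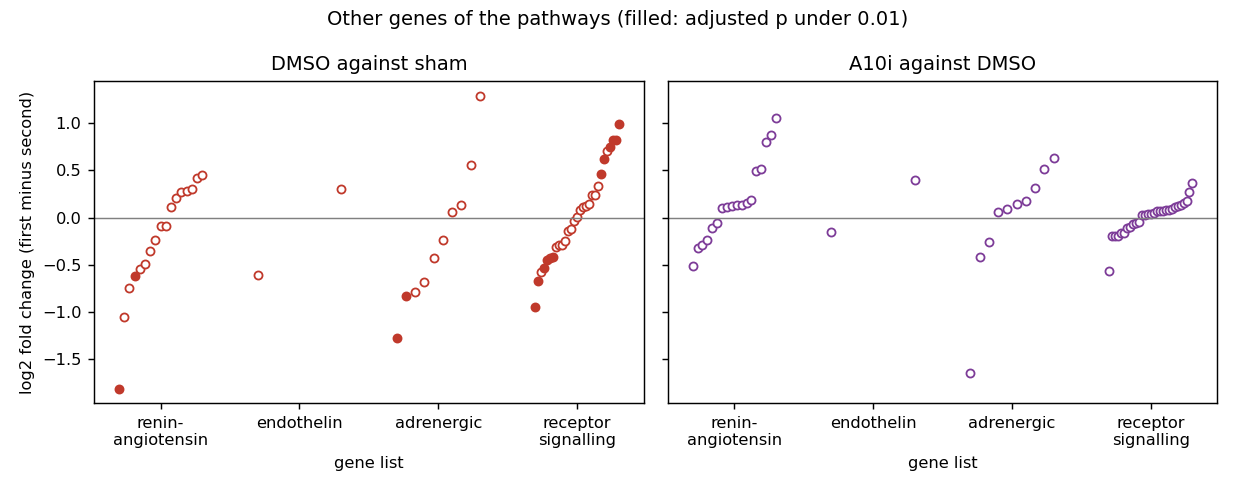
Log2 fold change (y axis) of the further renin-angiotensin, endothelin, adrenergic and receptor signaling genes that were tested (points, ordered by value within each list) in DMSO against sham mice (left) and A10i against DMSO mice (right). Filled points have an adjusted p-value under 0.01, 15 on the left and 0 on the right.

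The genes with the most similar profile over the 11 mice were found for each of the 9 genes, by the root mean square difference of log2 CPM after each profile was centered on its mean, among 17499 genes. For Ednra these were Zfp369 (0.073) and Efnb1 (0.0786), for Adra1b Slc25a20 (0.0874) and Lipe (0.0958), for Agtr1a Cmbl (0.0948) and Crnde (0.0992), for Ace Gm11814 (0.0995) and Gm5987 (0.11) and for Adrb1 Rtn4rl1 (0.115) and B230322F03Rik (0.149). For Ednrb they were Eps8 and Tnfrsf1a (0.138 each), for Edn1 Eif5a2 (0.145) and Nxn (0.148) and for Adra1a Fn3k and Msrb2 (0.153 each). For Agt they were Mt2 (0.395) and Bst1 (0.40). This difference grows with the spread of a gene's own profile, whose root mean square about its mean was 1.17 for Agt and 0.184 to 0.453 for the other 8 genes, so it is not compared between the genes. Within the 9 genes the smallest difference of a pair was that of Ace and Ednrb (0.257), whose own profiles spread by 0.344 and 0.453. The same limit holds for this order of pairs.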

How the data were processed

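RNA was sequenced from infarct and border zone tissue of 8 mice and healthy heart tissue of 3 sham mice. Per the labels and the methods, the authors isolated mRNA on poly-dT beads, kept its strand in the libraries, mapped read pairs to mm10 with GSNAP 2020-12-16 and counted unique alignments on Ensembl genes with featureCounts 2.0.1 (strand setting not given in the sources used here). The deposited values are raw counts, without normalization. With the strand setting unknown, it is open how reads in bases shared with a gene on the opposite strand were counted. Such genes were Gm11651 for Ace (at most 7 counts), Gm47118 for Edn1 (at most 1) and 4933431K23Rik for Ednra (at most 149). Counts were tested in R 4.3.3 with edgeR 4.0.16 (robust quasi-likelihood test, two-sided, TMM, filterByExpr, libraries of the compared groups alone, Benjamini-Hochberg adjustment over all genes, threshold 0.01). Each library is a separate mouse by its label. DESeq2 1.42.0, limma-voom (limma 3.58.1), other scalings and filters, a joint fit, a threshold of 0.05 and omission of each mouse were alternatives. The steps were tested on simulated data. Ratios of counts used 0.5 added to each count, and 1 further receptor ratio is not reported here.

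The genes and lists were chosen with earlier results of these data known. Named were all 10 genes; per pathway list up to 3 higher and 3 lower genes with the largest changes in DMSO against sham mice and the 2 smallest p-values in A10i against DMSO mice; the 2 genes most like each of the 9 tested; and, after their values were seen, Ren1, Agtr1b, Cyp11b1, Cyp11b2 and Th. Counts carry counting error and mouse-to-mouse spread, and total counts per library set the former. Promoter sequences came from the RefSeq table of GRCm38.p6.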

Additional observations from a re-analysis of the deposited data

Results flagged for a closer look

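Within the groups of 4 mice, 26 sets of values, those of the 10 genes and of 3 receptor ratios in 2 groups, were screened for a single mouse far from the other 3 by Dixon's criterion, and 3 stood out, where chance gives about 1 in 20. Ace in A10i mouse A120 was 155 CPM, and its gap to the nearest mouse was 0.848 of the range of the group. Agtr1a in A10i mouse A116 was 18.2 CPM, with a gap of 0.845 of the range. The log2 ratio of Ednra to Ednrb counts in A10i mouse A119 was 1.06, with a gap of 0.917 of the range. Without A120, Ace in A10i against sham mice was at a log2 fold change of 0.71. Without A116, Agtr1a in the same comparison was at -0.51 and was still called by edgeR (SE 0.0658, adjusted p = 7.95e-05).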

How the results depend on the processing

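The count of called genes among the 9 moved with several choices. In DMSO against sham mice it was 3 and became 6 at a threshold of 0.05, and it ranged from 3 to 5 with 1 mouse left out, 5 being the value without DMSO mouse A128. In A10i against sham mice it was 4 and became 1 with no filter on low counts, and it ranged from 1 to 4 with 1 mouse left out, with 1 without S1 and 2 without S2, S3 or A120. In A10i against DMSO mice it was 0 in every fit. With library size as the only scaling, the median of all genes was 0.21 in DMSO against sham and 0.18 in A10i against sham mice, and in the latter comparison Ednra turned to 0.16 and Adra1b to 0.13. With 1 mouse left out, uncalled differences close to 0 changed sign. In A10i against sham mice Ednra ranged from -0.11 to 0.01 (0.0126 without A116 and 0.0146 without A120), Adrb1 from -0.039 (without A120) to 0.14 and Adra1b from -0.17 to 0.065 (without A116). In A10i against DMSO mice Ednrb ranged from -0.20 to 0.089, with 0.037 without A129 and 0.089 without A119. The causes of these changes were not tested. Both receptor ratios kept their direction in all settings, and leaving out a mouse raised the smallest possible p of the comparisons with sham mice above that of the whole groups. No paired analysis was possible because the animal numbers are not shared between groups. The 3 to 4 mice per group and, for Agtr2, counts of at most 3 limit what could be seen.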
